A study of Mus musculus with 24 samples.

Results

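The late cornified envelope genes Lce1a1, Lce1b, Lce1c, Lce1d, Lce1f, Lce1g and Lce1i and the related genes Lce3b, Lce3c and Lce3f were followed in mouse epidermis from postnatal day 3 (P3) to adulthood. They were chosen by name, as the rows of the bead array file that carry these 10 gene names, 7 of the Lce1 group and 3 of the Lce3 group. All 10 were found, on 11 probes of 45281, and all passed the filter on dim probes (a detection p-value under 0.01 on at least 2 arrays), which left 14274 genes. Lce3b passed it through mutant arrays alone: it was detected on 8 of 11 mutant arrays and on 0 of 12 control arrays, so that a difference was built into its passing.

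Late cornified envelope genes lie side by side in the epidermal differentiation complex. They are switched on when keratinocytes leave the granular layer, and their small cysteine-rich proteins are cross-linked by transglutaminases onto the inner face of the cornified envelope, the shell that replaces the membrane of a dead surface cell. Lce1 genes are known as genes of normal terminal differentiation. In human skin, the LCE3 genes are low at rest and are induced by barrier injury and in psoriasis, together with genes such as the SPRR2 family.

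RNA of epidermis, peeled off the dermis after overnight trypsin, was hybridized to Illumina bead arrays, 1 array per sample, 24 arrays on 8 chips. The mutants were Mad2f/f; K14Cre+ mice: both floxed copies of Mad2, a protein of the spindle assembly checkpoint encoded by Mad2l1, can be cut out where the keratin 14 promoter drives Cre, which is in basal keratinocytes and the outer hair follicle. There were 2 mutants each at P3, P6, P13 and P20, and the controls were Cre-Neg animals, 4 at P3, 2 at P6, 2 at P13 and 3 at P20. The adults were 2 mutants that also carried a floxed p53 allele (Mad2f/f; p53f/+; K14Cre+), 1 mutant without it (Mad2f/f; K14Cre+) and 1 control (Mad2f/+; K14-Cre+), which therefore carried Cre and could lose a single Mad2 copy.

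All mice were of mixed B6-129Sv strain, the P3 animals and all controls are labelled as without phenotype, and the mutants from P6 on are labelled Nude. Nothing states that the samples came from separate animals, so p-values measure the spread between samples. The labels of a further P3 array, sample 3, conflict: it is typed as Control with the genotype Mad2f/f; K14Cre+, and it was kept out of all comparisons.

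Mad2l1 was lower in mutants at all ages (adjusted p at most 0.0063). At P6 it measured 5.92 and 6.27 in mutants on its brighter probe, against 8.01 and 8.58 in controls. At the other ages that probe was below detection in every mutant and detected in every control, at least 1.78-fold lower at P20 and at least 7.89-fold lower at P13. A dimmer Mad2l1 probe was below detection in both genotypes at P3 (mean 4.38 in mutants, 4.49 in controls) and P20 (4.54 and 4.77). It could therefore not show a difference at those ages. On the P3 array with conflicting labels the brighter probe stood at 7.69, inside the range of P3 controls (6.91 to 7.80). The labelled tissue showed in its markers: per array, basal keratinocyte genes averaged 9.74 to 13.35 and suprabasal genes 11.95 to 14.35 (log2 intensity). In contrast, 9 fibroblast markers averaged 6.10 to 6.19 in P6 mutants, against 10.56 to 11.05 in P6 controls, and 8 markers of hair matrix and shaft averaged 5.04 to 5.56 in P13 mutants, against 11.83 to 11.96 in P13 controls. Since whole epidermis was hybridized, fewer cells of a type and less RNA per cell cannot be told apart. Lce genes resemble each other closely, and whether a probe also reads a neighbour was not tested.

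The genes stand in a single cluster on chromosome 3. In the order of the RefSeq annotation it runs from Lce1a1 and Lce1b through Lce1c, Lce1d, Lce1f, Lce1g and Lce1i, then past Kprp to Lce3b, Lce3c and Lce3f, with Crct1 and Lce1m at the far end. RefSeq promoter windows (build GRCm38.p6) were held for 9 of the 10 members, all except Lce1f. The last 120 bases before the start are shown for 5 members, because the results separate the Lce1 from the Lce3 genes and these windows show which letters each group shares. Capitals mark ACTGTCTCAC and ATAAAA in the Lce1 windows and AGGATAAAAG in the Lce3 windows. Lce1g is chr3:92752339-92752458 and Lce1i chr3:92778900-92779019 on the minus strand, and Lce3b is chr3:92932859-92932978, Lce3c chr3:92944366-92944485 and Lce3f chr3:92992097-92992216 on the plus strand.
Lce1g: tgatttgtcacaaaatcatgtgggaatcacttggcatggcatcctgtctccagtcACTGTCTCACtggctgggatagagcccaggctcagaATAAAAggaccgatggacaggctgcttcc
Lce1i: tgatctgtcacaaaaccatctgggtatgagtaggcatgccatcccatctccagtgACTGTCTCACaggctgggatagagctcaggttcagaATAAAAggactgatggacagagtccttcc
Lce3b: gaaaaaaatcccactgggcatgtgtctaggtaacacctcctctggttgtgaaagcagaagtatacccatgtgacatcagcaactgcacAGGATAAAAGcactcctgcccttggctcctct
Lce3c: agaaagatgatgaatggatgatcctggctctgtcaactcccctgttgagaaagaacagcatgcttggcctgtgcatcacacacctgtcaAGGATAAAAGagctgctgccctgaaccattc
Lce3f: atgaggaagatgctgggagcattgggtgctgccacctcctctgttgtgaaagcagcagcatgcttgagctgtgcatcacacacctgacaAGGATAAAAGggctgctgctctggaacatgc

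Each 10-base word is the one that most windows of its group share, and all words were searched on both strands. AGGATAAAAG was in 3 of 3 Lce3 and 0 of 6 Lce1 windows, against 0.0517% of the 32851 promoter windows of the same length. ACTGTCTCAC was in 5 of 6 Lce1 windows (all except Lce1c) and 0 of 3 Lce3 windows, against 0.0548% of all windows. The shorter ATAAAA, which lies inside AGGATAAAAG, began 28 or 29 bases before the start in 8 of the 9 members, all except Lce1a1, and was in 8.3% of all windows. The AP-1 sequence TGANTCA was in 0 of the 9 member windows and in 3.41% of all windows. A match is a description of the letters and not a shown site.

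In controls, the Lce1 genes were high at P3, lower at P6, lowest at P13 and higher again at P20. Lce1f shows the course: its log2 intensity was 12.56, 12.43, 12.59 and 11.83 in the 4 controls at P3, 9.61 and 9.76 at P6, 6.15 and 6.13 at P13, and 13.12, 8.18 and 8.67 at P20. No value at P6 or P13 reached those of P3, and 1 of the P20 controls was as high as the P3 controls. All 7 Lce1 genes differed across the 4 ages (moderated F test, adjusted p 3.49e-09 for Lce1c to 0.00617 for Lce1g), as did 45% of all genes.

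Between neighbouring ages, 5 of 7 Lce1 genes fell at P6 relative to P3, by 2.37 (Lce1c) to 3.49 (Lce1i) on the log2 scale, where 15.3% of all genes fell. At P13 relative to P6, all 7 estimates were negative (-1.19 to -3.55), but only Lce1c passed the test (-1.19 ± 0.23 SE, adjusted p = 0.014), where 1.04% of all genes fell. At P20 relative to P13, 6 of 7 rose, by 2.75 (Lce1a1) to 3.85 (Lce1f), where 11.1% of all genes rose. Without single arrays these counts changed, and the call on Lce1c at P13 relative to P6 was lost without any single control of P6 or P13. The number of all genes called changed as well, and the ranges of both are given at the end.

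Of the Lce3 genes only Lce3c was detected in all 12 controls, so that it alone could be followed across ages there. Whether its course differed from that of the Lce1 genes was not tested. Lce3c measured 10.80, 11.51, 11.03 and 10.89 at P3, 6.86 and 6.11 at P6, 7.90 and 8.09 at P13, and 9.53, 7.88 and 6.38 at P20. It fell at P6 relative to P3 (-4.57 ± 0.57 SE, adjusted p = 1.71e-05) and did not pass the test at the later steps (1.51 ± 0.66 and -0.07 ± 0.60). Lce3f was 6.30, 6.75, 5.77 (below detection) and 6.30 at P3 and 6.06 in P20 control 3, and 4.63 to 4.96 and below detection in all other controls up to P20. Lce3b was below detection in every control. Across the 4 ages 1 of the 3 Lce3 genes, Lce3c, passed (adjusted p = 2.96e-05), and 2 did without P20 control 3.

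Fibroblast markers moved the other way in controls at the first and last steps between ages. Of 9 markers 8 rose at P6 relative to P3, and all 9 fell at P20 relative to P13. At P13 relative to P6 they did not: Col3a1 (-3.28) and Pdgfra (-1.57) fell, where 1.04% of all genes fell, and the other fibroblast markers did not pass. Their mean per control array was 5.76 to 6.20 at P3, where 6 of the 9 were detected on no array, 10.56 to 11.05 at P6, 9.69 to 10.07 at P13 and 5.71 to 7.71 at P20. Many genes moved at the first and last steps: of all genes, 18% were higher at P6 than at P3 and 13.1% lower at P20 than at P13. Of the suprabasal markers, the keratin Krt1 took the course of the Lce1 genes. It changed by -2.68 at P6 relative to P3, -2.71 at P13 relative to P6 and 2.87 at P20 relative to P13, all past the test. The other suprabasal markers did not pass throughout. Krt10, Lor and Dsc1 passed at no step, Krtdap not at P13 relative to P6, and Flg not at P6 relative to P3. The part of these markers in the course of the Lce1 genes was not tested.

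At P3, before any visible phenotype, the question is whether the envelope genes already differed. None of the 10 members passed the test, where 1.93% of all genes did (0.273% higher and 1.66% lower). The 7 Lce1 genes differed by -0.28 (Lce1a1) to 0.58 (Lce1f) on the log2 scale, and the interval for Lce1c, the most precise, was -0.41 to 0.45. Lce3f measured 8.0 and 7.47 in mutants, against 6.30, 6.75, 5.77 (below detection) and 6.30 in controls, a difference of 1.45 ± 0.53 SE with an adjusted p of 0.337. Lce3c measured 11.86 and 11.91 in mutants, against 10.80, 11.51, 11.03 and 10.89 in controls (0.83 ± 0.57 SE, adjusted p = 0.97). For both genes the mutants lay above every control, which was so for 13.1% of all genes. The same held for Lce1f, at 12.84 and 13.02 in mutants and 11.83 to 12.59 in controls. Lce1a1 mutants lay below every control, at 12.57 and 12.71 against 12.76 to 13.22, as in 9.69% of all genes. The call on Lce3f depends on the fit: its adjusted p was 0.034 with chip as a fixed block (1.46 ± 0.33 SE), 0.0477 with array weights and 0.0163 without chips G and H.

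At P6 all 10 members were higher in mutants, where 9.51% of all genes were. The Lce1 genes rose by a median of 2.94 on the log2 scale, from 2.14 (Lce1a1) to 4.59 (Lce1g), against a median of -0.03 over all genes. Lce1g measured 10.40 and 11.43 in mutants, against 6.00 and 6.63 in controls (4.59 ± 0.92 SE, adjusted p = 0.00159). Lce1d measured 14.15 and 14.70 in mutants, against 11.56 and 11.42 in controls (2.94 ± 0.78 SE, adjusted p = 0.0117). In both genes each mutant lay above each control, as in 34.2% of all genes.

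Of the Lce3 genes at P6, Lce3c measured 12.21 and 12.35 in mutants, against 6.86 and 6.11 in controls (5.80 ± 0.66 SE, adjusted p = 1.05e-05). Lce3f measured 11.34 and 10.37 in mutants and was below detection in both controls at 4.80 and 4.96, so that its fold is a lower bound: it was at least 49.1-fold higher (adjusted p = 3.41e-06). For such a bound, the dim group is given the lowest signal that counts as detected on each array, or the probe's own signal where that is higher. Lce3b measured 9.33 and 7.15 in mutants and 4.46 and 4.70, below detection, in controls, at least 8.0-fold higher (adjusted p = 0.00126).

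The Lce1 count at P6 was 3 of 7 without mutant 2 and 4 of 7 without control 3 or control 4, while the Lce3 count stayed at 3 of 3 without any 1 array. The number of all genes called at P6 was also lower without any 1 of these arrays. On the chip that held both genotypes, the 7 Lce1 differences were 2.15 to 4.91. Markers of other cells also differed in these mutants: 7 of 9 fibroblast and 5 of 7 endothelium and blood markers were lower, and all 4 measured myeloid and Langerhans markers were higher (Cd207 by 2.88, Cd74 by 2.54). Of 6 suprabasal keratinocyte markers 2 were higher, Krt1 by 3.14 and Krtdap by 1.00, and 0 lower. The part of these markers in the result was not tested.

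At P13 all 10 members were again higher in mutants, where 9.97% of all genes were. Lce1f measured 12.59 and 13.30 in mutants, against 6.15 and 6.13 in controls (6.81 ± 1.05 SE, adjusted p = 0.000243). Lce1d measured 13.83 and 14.40 in mutants, against 9.24 and 8.55 in controls (5.22 ± 0.78 SE, adjusted p = 0.000182). The smallest Lce1 difference with a measured control level was that of Lce1c, 3.16 ± 0.23 SE, and Lce1g, below detection in controls, was at least 8.64-fold higher. The median of the 7, with Lce1g at its bound, was 4.30, against -0.01 over all genes.

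Of the Lce3 genes at P13, Lce3f measured 13.88 and 13.51 in mutants, against 4.83 and 4.89, both below detection, in controls. It was at least 328-fold higher (adjusted p = 5.14e-08). Lce3b measured 13.87 and 13.19 in mutants, against 4.99 and 4.95, below detection, in controls, at least 293-fold higher (adjusted p = 3.33e-07). Lce3c, which controls express at a measurable level, was 14.73 and 14.42 in mutants, against 7.90 and 8.09 in controls (6.58 ± 0.66 SE, adjusted p = 3.19e-06).

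All 4 arrays of P13 were on a single chip, and the mean of the fibroblast markers there was 9.34 to 9.70 in mutants, against 9.69 to 10.07 in controls. Of these 9 markers 1 was lower (Col1a1, -2.90 ± 0.84 SE, adjusted p = 0.0212), 2 were higher (Pdgfra by 1.22, Fbln1 by 1.41) and 6 did not pass. Of the 6 suprabasal markers 3 were higher (Krt1 by 4.18, Krtdap by 1.87) and 0 lower, and all 8 hair markers were lower in mutants at P13 and at P6. Their part in the Lce differences was not tested.

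At P20 the Lce3 genes were again 3 of 3 higher, but the Lce1 genes 4 of 7, where 4.46% of all genes were. Lce3f measured 12.42 and 11.77 in mutants, against 6.06 in control 3 and 4.83 and 4.63, both below detection, in controls 4 and 5. It passed the test (adjusted p = 2.18e-06), with a fitted difference of 6.92 that takes in these undetected values. Lce3c measured 13.30 and 13.79 in mutants, against 9.53, 7.88 and 6.38 in controls (5.62 ± 0.60 SE, adjusted p = 2.43e-05). Lce3b measured 10.14 and 11.84 in mutants and was below detection in all 3 controls (4.56, 4.41 and 4.83), at least 30.6-fold higher. In all 3 genes each mutant lay above each control, as in 10.9% of all genes.

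The Lce1 genes that passed at P20 were Lce1d, Lce1f, Lce1g and Lce1i, with differences of 2.51 for Lce1d, 3.36 for Lce1f and 3.01 for Lce1i. For Lce1g 2 of the 3 controls were below detection (4.92 and 4.66, with control 3 at 7.51), and its fitted difference of 4.22 takes them in. Lce1a1 (1.09 ± 0.64 SE), Lce1b (0.82 ± 0.42 SE) and Lce1c (0.46 ± 0.21 SE) did not pass. Control 3 stood apart from the other controls: Lce1a1 measured 13.68 and 12.87 in mutants, against 14.29 in control 3 and 10.95 and 11.33 in controls 4 and 5. Lce1f likewise measured 14.06 and 12.64 in mutants, against 13.12 in control 3 and 8.18 and 8.67 in the other controls.

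The P20 result for Lce1 therefore rests on which arrays are used. So does the number of all genes called at P20, whose range is given at the end. All 7 Lce1 genes passed without control 3, and 0 passed without mutant 1, 2 without mutant 2, and 1 without control 4 or control 5. Control 3 shared a chip with mutant 1, and on that chip 5 of 7 Lce1 genes were higher in the mutant (-0.61 to 3.63), while on the chip of mutant 2 and controls 4 and 5 all 7 were (0.67 to 4.22). All 3 Lce3 genes were higher on both chips, Lce3c by 3.77 on the first and by 6.66 on the other. In control 3, fibroblast markers averaged 7.71, against 5.98 and 5.71 in controls 4 and 5, and suprabasal markers 13.64, against 12.94 and 12.89; their part in the result was not tested.

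In adults, all 10 members were higher in the 3 mutants together than in the single control, where 5.21% of all genes were. Lce1d measured 14.20 and 14.48 in the p53f/+ mutants and 13.98 in the mutant without that allele, against 9.49 in the control (4.73 ± 0.90 SE, adjusted p = 0.00206). The 3 mutants were alike for the Lce1 genes, whose means per array were 13.11 and 13.77 with the p53f/+ allele and 13.12 without, against 8.92 in the control. Lce1g was at least 25.7-fold higher.

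The adult mutants were not alike for the Lce3 genes. Lce3f measured 11.23 and 13.66 in the p53f/+ mutants and 7.28 in the other mutant, and 4.85, below detection, in the control. Lce3c measured 13.04 and 14.32 with the p53f/+ allele and 10.41 without, against 7.24 in the control. Lce3b measured 10.68 and 13.27 with the allele and was below detection both in the mutant without it (5.54) and in the control (4.84).

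With a single mutant that lacked the p53f/+ allele, the gap between adult mutants was not tested, and that array also differed in other cells' RNA: fibroblast markers averaged 5.92 and 5.85 in the p53f/+ mutants and 10.66 in the other mutant, against 11.28 in the control. Over all 3 mutants Lce3f was at least 43.3-fold higher, and Lce3c differed by 5.36 ± 0.76 SE (adjusted p = 0.00016). For Lce3b no bound is given, because 1 of the 3 mutants was itself below detection. On the chip that held the control and 2 of the mutants, the Lce1 differences were 3.34 to 5.78 and the Lce3 differences 4.56 to 5.62, values below detection included. In fits of that chip or of the adult arrays alone fewer members passed, and fewer of all genes did too. The spread of the single adult control is assumed to be that of the other groups. The comparison cannot tell its genotype, Mad2f/+ with Cre, apart from that 1 animal.

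**Figure D1:**
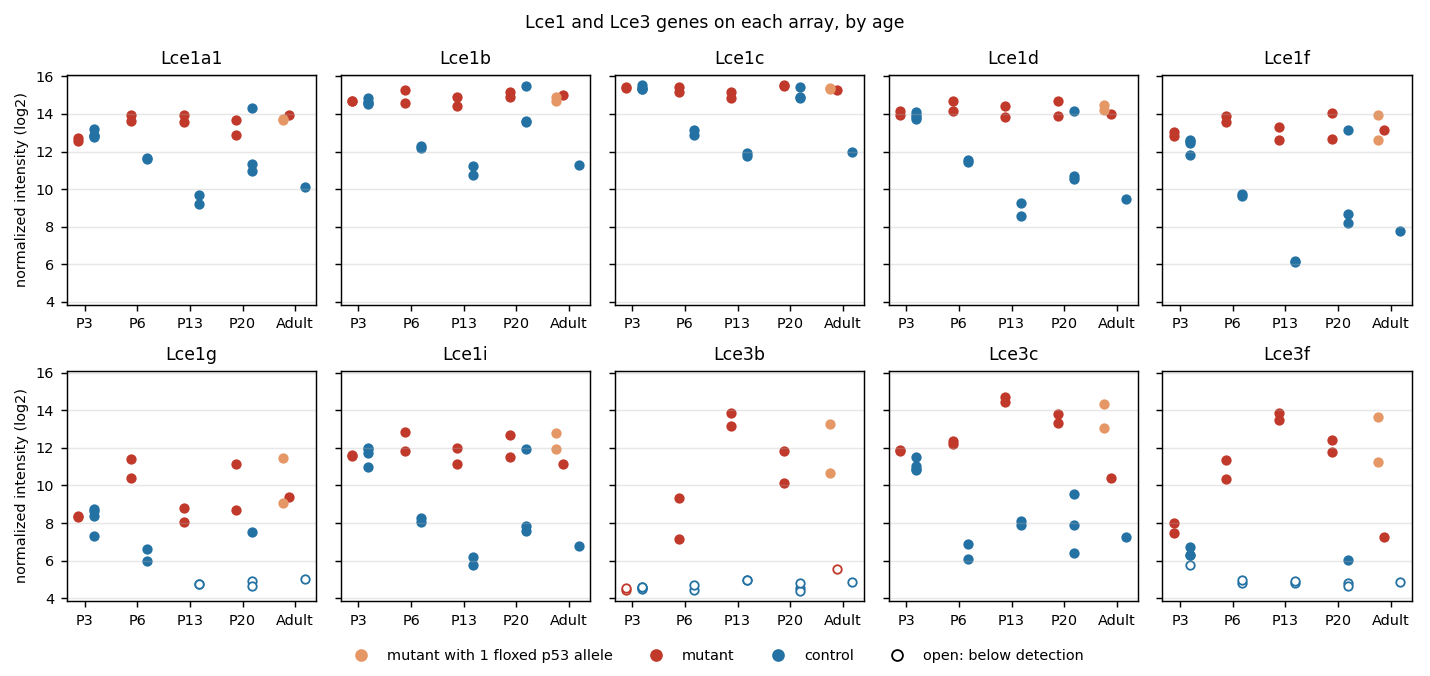
Normalized log2 intensity of the 10 genes on the 23 arrays with a group, by age, with mutants left of controls; each point is 1 array and open points lay below detection. Mutants and controls lie close at P3, where Lce3b is below detection in both. Mutants lie above controls at P6 and P13 in every panel, as they do in 34.2% of all genes at P6 and 35.1% at P13. At P20 control 3 lies above at least 1 mutant in 5 Lce1 panels (Lce1a1 at 14.29) and in no Lce3 panel.

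Whether the genotype difference itself changed with age was tested by contrasts between the differences. At P6 it was larger than at P3 for 4 of 7 Lce1 and 3 of 3 Lce3 genes, where 4.61% of all genes were higher in this contrast. At P13 it was larger than at P3 for 6 of 7 Lce1 genes (all except Lce1g, adjusted p = 0.0799) and 3 of 3 Lce3 genes, where 4.11% of all genes were. At P20 it was larger than at P3 for 0 of 7 Lce1 genes (3 at an unadjusted p under 0.05: Lce1d, Lce1g and Lce1i) and 3 of 3 Lce3 genes, where 2.16% of all genes were. The 3 contrasts share the P3 arrays. Lce3b and Lce3f were below detection in controls at P6 and P13, as was Lce1g at P13, so that the sizes of such contrasts are fitted values and not measured changes. The Lce1 count at P6 was 2 without P3 mutant 1, P3 mutant 2 or P6 control 3 and 1 without P6 mutant 2 or P6 control 4, and at P20 it was 6 without P20 control 3 and 1 without P20 mutant 2.

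From P6 to P13 the contrast passed for Lce3b (adjusted p = 0.00459) and Lce3f (adjusted p = 0.046), where 5.6% of all genes were higher. In mutants Lce3b measured 9.33 and 7.15 at P6 and 13.87 and 13.19 at P13, and Lce3f 11.34 and 10.37 at P6 and 13.88 and 13.51 at P13, while the controls of both ages lay below detection. The Lce3 count for this step was 1 without P6 mutant 2 or without any single P6 or P13 control or P13 mutant. From P13 to P20 the difference shrank for Lce1a1, Lce1b and Lce1c, by 3.21, 2.84 and 2.70, where 4.07% of all genes were lower. From P13 to P20 the Lce3 estimates were -0.96 to -2.18, and 0 of 3 passed (2 at an unadjusted p under 0.05, Lce3b and Lce3f). Without P13 control 4 the Lce1 count from P13 to P20 was 1. From P6 to P20 the difference shrank for Lce1c alone (-1.82 ± 0.32 SE, adjusted p = 0.00156), where 3.98% of all genes were lower. Between P6 and P20 the count was 2 Lce1 genes without any single P20 control, and 1 Lce3 gene in place of 0 without P6 mutant 1 or P20 mutant 1.

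**Figure D2:**
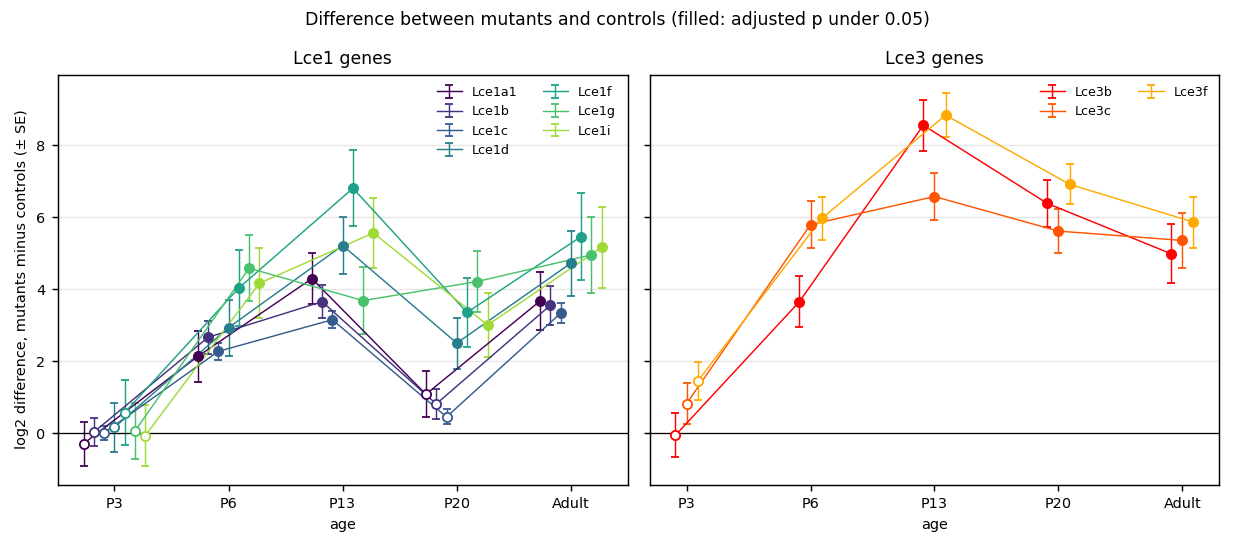
Log2 difference between mutants and controls with its standard error, by age, for the Lce1 genes (left) and the Lce3 genes (right); filled points passed an adjusted p of 0.05. At P3 the values run over -0.28 to 0.58 for Lce1 and -0.05 to 1.45 for Lce3, and at P20 over 0.46 to 4.22 and 5.62 to 6.92; where controls lay below detection, as for Lce3b at all ages, the point is a fitted value and not a measured size.

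The mean levels behind these differences were not built alike in the Lce1 and Lce3 genes, although single genes departed from their mean. In mutants, the mean of the 7 Lce1 genes was 12.80 and 12.83 at P3, 13.34 and 13.92 at P6, 12.63 and 13.21 at P13 and 13.85 and 12.87 at P20. P3 controls stood at 12.37 to 13.01 and the highest of these mutant arrays at 13.92, while controls were at 10.33 and 10.40 at P6 and at 8.46 and 8.13 at P13. The Lce1 gap at P6 and P13 thus went with a level in controls below that of P3.

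The mean of the 3 Lce3 genes, values below detection included, was 8.11 and 7.97 in mutants at P3, 10.96 and 9.95 at P6, 14.16 and 13.71 at P13 and 11.95 and 12.47 at P20. Controls were at 7.14 to 7.58 at P3 and between 5.26 and 6.72 at P6 to P20. Here the mutants of P6 to P20 lay above every array of P3 of either genotype. Not every gene followed the mean of its group. Lce3c fell in controls from a mean of 11.06 at P3 to 6.48 at P6, while its mutants averaged 11.88 and 12.28. Lce1g averaged 8.34 in P3 mutants and 8.28 in P3 controls, and 10.91 in P6 mutants. Mutants were not tested across ages, and these are levels only.

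Ordered by group mean, Lce3c was highest in P13 mutants (14.58), then in adult p53f/+ mutants (13.68), P20 mutants (13.55), P6 mutants (12.28), P3 mutants (11.88), P3 controls (11.06) and the adult mutant without p53f/+ (10.41). Below these came P13 controls (7.99), P20 controls (7.93), the adult control (7.24) and P6 controls (6.48). The adult p53f/+ and P20 mutants overlapped in their arrays, and so did P20 controls with each of the other low groups. For Lce1f, group means ran from 13.73 in P6 mutants through P20 mutants (13.35), adult p53f/+ mutants (13.28), the adult mutant without p53f/+ (13.14) and P13 mutants (12.95) to P3 mutants (12.93), each overlapping its neighbour. P3 controls (12.35), P20 controls (9.99), P6 controls (9.69), the adult control (7.77) and P13 controls (6.14) followed.

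**Figure D3:**
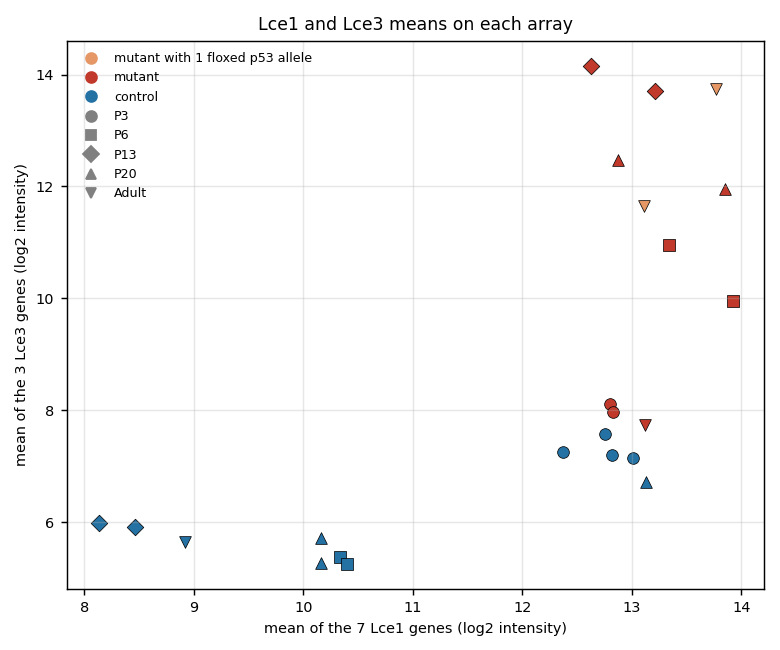
Mean log2 intensity of the 3 Lce3 genes (vertical) against that of the 7 Lce1 genes (horizontal) on each of 23 arrays, coloured by genotype and shaped by age. Mutants of P6 to P20 and the adult p53f/+ mutants are high on both; P3 arrays, P20 control 3 and the adult mutant without p53f/+ are high on Lce1 (12.37 to 13.13) with Lce3 at 6.72 to 8.11; the other controls are low on both.

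Across the 23 arrays, which share ages, genotypes and chips, members of a group varied together as a description: Pearson's r was 0.706 to 0.989 among the 21 pairs of Lce1 genes and 0.769 to 0.940 among the 3 pairs of Lce3 genes. Between an Lce1 and an Lce3 gene it was 0.307 to 0.830 over 21 pairs.

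The probes of Lce3b did not behave alike. The 2 probes filed under its name were both detected on 8 arrays. At P13 they read 13.87 and 13.19 in mutants on the brighter probe and 11.70 and 11.14 on the other, and both were below detection in controls. A further probe, filed under a clone name that RefSeq lists as a synonym of Lce3b, was detected on 23 arrays. It measured 8.28 to 9.07 in P3 controls, where the others lay below detection, and differed by 7.80 ± 0.81 SE at P13. It was kept apart under its own name.

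The brightest members may be understated. In P6 mutants Lce1c stood at 92.8% and 96.3% of the highest signal of its array and Lce1b at up to 92.6%. At P20, where neither passed, Lce1c stood at up to 94.5% in mutants and 88.2% in controls, and Lce1b at up to 83.4% and 89.5%. Compression of such signals was not tested.

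Among other genes filed under an Lce name, Lce1h was detected on 1 array and was left out, and 5 were tested. Lce1a2, Lce1e, Lce1l and Lce3a were higher in mutants at P6, P13 and in adults, and Lce1e and Lce3a also at P20. Lce1m, at the far end of the cluster beyond Lce3f, went its own way: it measured 12.85 and 13.80 in P13 mutants, against 13.70 and 13.44 in controls (-0.24 ± 0.43 SE), and passed the test in adults alone (1.61 ± 0.50 SE, adjusted p = 0.0468). The signal of Lce1m was 97.0% to 100% of the array's highest in P3 controls. Lce3e and Lce6a, filed under clone names, were tested too and were higher in mutants at P6, P13, P20 and in adults. Lce6a differed by 4.03, 3.38, 1.80 and 4.85. Lce3e was detected on 10 arrays, all of mutants, and below detection in every control, so that a difference was built into its passing the filter. It was at least 16.9-fold higher at P6, 62.5-fold at P13 and 23.3-fold at P20. In adults Lce3e was also below detection in the mutant without p53f/+ (4.80), so that no bound is given.

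Other structural genes of the cornified envelope were taken as a list of 36, of which 29 were measured. In mutants 1 was higher and 2 lower at P3, 18 and 1 at P6, 19 and 2 at P13, 10 and 0 at P20, and 15 and 2 in adults. Of all genes, 1.66% were lower at P3, 13.3% at P6, 10.5% at P13, 5.72% at P20 and 6.66% in adults, and the shares that were higher are given above. The largest changes were in the Sprr2 genes, small proline-rich precursors known from stressed and inflamed epidermis: Sprr2d rose by 2.77 at P3, 8.41 at P6, 9.22 at P13 and 7.91 at P20. Rptn, a matrix protein of the cornified cell, rose by 5.91 at P6 and 5.64 at P13.

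Not all of the envelope moved. Lor, the main protein of the mature envelope, passed at no age (-0.22 to 0.60), and Ivl, an early envelope precursor, passed at P13 alone (1.11 ± 0.37 SE). Flg, which bundles keratin, rose by 3.09 at P13, 0.95 at P20 and 1.78 in adults. Tchhl1 fell at P3, P6, P13 and in adults, by 4.51, 2.92, 6.11 and 6.17. The hair markers all fell at P6 and P13, as given above. At P3 Krt31, Krt33a, Krt33b and Krt81 fell, and Krt35, Hoxc13, Lef1 and Shh did not pass.

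Of 17 enzymes that cross-link or process the envelope and its lipids, 0 were higher and 1 lower at P3, 10 and 1 at P6, 9 and 2 at P13, 6 and 0 at P20, and 8 and 2 in adults. Alox12b, a lipoxygenase needed for the lipid envelope, rose by 3.48 at P6, 3.88 at P13 and 4.24 in adults, and measured 0.18 ± 0.33 SE at P20. Tgm1, the transglutaminase that fixes envelope proteins in place, rose by 1.70 at P6, 1.62 at P13 and 1.30 at P20, and measured 1.33 ± 0.43 SE in adults. Casp14, a protease of the cornifying cell, rose by 3.90 at P13. Padi1, which converts arginine to citrulline in envelope and filament proteins, fell by 2.19 at P6, 4.24 at P13 and 4.22 in adults, and rose by 4.76 at P20.

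Of 26 measured regulators of the epidermal differentiation complex, 0 passed at P3, 4 were higher and 1 lower at P6, 8 and 2 at P13, 3 and 2 at P20, and 4 and 3 in adults. Grhl3, a factor of barrier formation, rose by 2.40 at P6 and 1.86 at P13, and Cebpa, a factor of late differentiation, by 1.87 and 1.20. Junb, an AP-1 subunit, rose at P13 alone (2.24 ± 0.45 SE), and Vdr, the vitamin D receptor, fell at P6 by 1.39. Klf4 passed at no age (0.08 to 1.90).

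Genes of injured or stressed keratinocytes had 2 higher of 23 measured at P3, 18 at P6, 15 at P13, 15 at P20 and 12 in adults, and 0 lower at each age. Krt16, a keratin of wounded and hyperproliferative epidermis, rose at P3 (2.81 ± 0.48 SE, adjusted p = 0.00252), where no Lce gene passed, and by 5.83 at P6, 5.67 at P13, 5.59 at P20 and 5.86 in adults. Serpinb3c, a protease inhibitor, rose by 4.25 at P3 and was at least 109-fold higher at P6, and differed by 0.16 ± 0.55 SE at P13. Defb14, a beta-defensin, was at least 171-fold higher at P13.

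**Figure D4:**
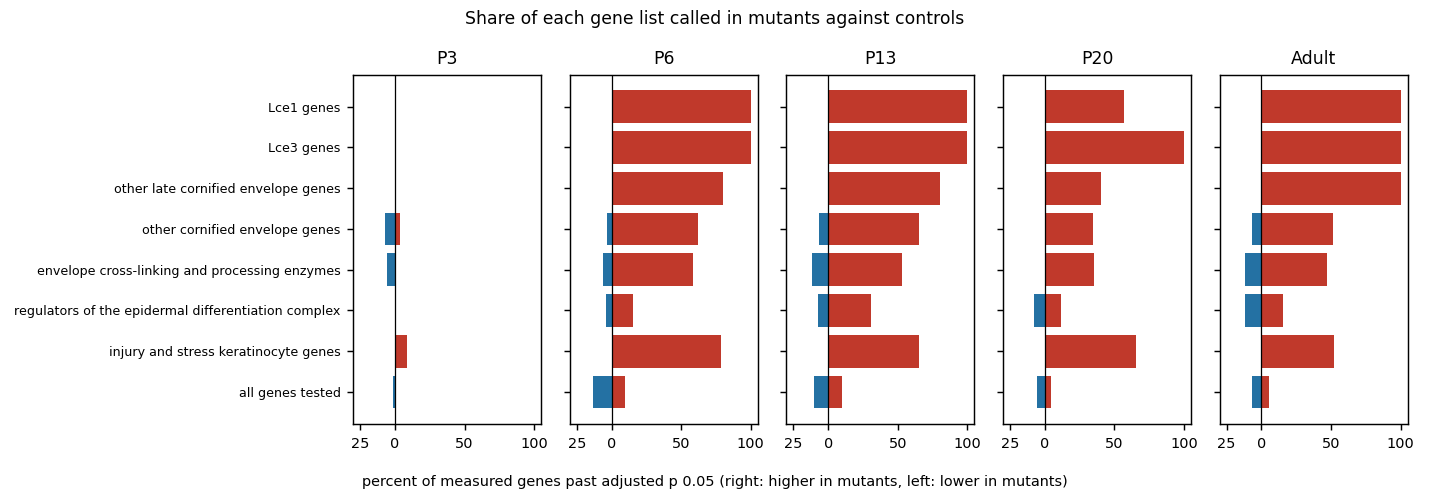
Percent of the measured genes of each list that passed an adjusted p of 0.05 at each age, to the right for higher and to the left for lower in mutants, with all 14274 genes at the bottom. The Lce1 and Lce3 bars reach 100% at P6, P13 and in adults. At P20 Lce3 stays at 100% and Lce1 is at 57.1%. The Lce3 bars include Lce3b, which was detected on 0 of 12 control arrays and passed the filter through mutant arrays alone.

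The 5 genes whose profile over the 23 arrays was most like that of the Lce1 members were Hrnr, the hornerin gene of the same complex (Pearson's r 0.968), Lce1l (0.958), the feature LOC545547 (0.957), whose number is the RefSeq gene ID of Lce1j in the same cluster, Lce1a2 (0.952) and Slc19a2, a thiamine transporter (0.951). The 5 most like the Lce3 members were Sprr2e (0.979), the probe filed under the synonym of Lce3b (0.973), Lce3e (0.971), Sprr2d (0.964) and Sprr2g (0.962). The arrays share ages and genotypes, and these values describe likeness over them.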

How the data were processed

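Per the file headers, the authors deposited for each of 24 arrays an average bead intensity per probe, not normalized, and a detection column. By their values, 10 of these deposited columns held a detection p-value and 13 held the fraction 1 minus that p-value; 1 per-sample column held bead numbers and was not used. The authors also deposited a matrix of normalized log2 values, made with limma per the submitters' processing notes, which was used as an alternative. On 4 arrays (chips G and H) a background was already subtracted.

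Intensities were background-corrected with the normal-exponential model from the detection p-values (limma 3.58.1, R 4.3.3), raised by an offset of 16, then quantile-normalized; all levels are log2. Array 3 of the adults had no detection p-values, and its background and detection were taken from its chip. Per array, the 75th percentile lay 21.2 to 182 units above background, which limits dim genes, and 23.3% to 40.1% of probes were detected. A gene with several probes is represented by the brightest on average. Gene names follow RefSeq (27760 probes directly, 7994 by synonym, 187 ambiguous).

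limma's moderated test was run in a single fit of group means over the 24 arrays, with 12 residual degrees of freedom and 4.1 from the prior, and p-values were adjusted by Benjamini and Hochberg over 14274 genes in each contrast, at 0.05. No 2 arrays were copies (smallest SD of a log2 difference 0.317). The script was tested on simulated data. Members and lists were chosen with earlier results of these data known. Named were all members, Mad2l1, the other Lce genes, the 5 genes most like each group, and from each other list up to 4 called genes with the largest change in a contrast plus Krt6a, Krt6b, Krt16, Krt1, Krt10, Lor, Flg, Ivl and Tgm1 where compared; Klf4 was chosen after its values were seen. The alternatives are no background correction, the deposited normalized matrix, an offset of 50, a filter dropped or set at 12 arrays, averaged probes, chip as a fixed or random block, chips with both genotypes alone, fits restricted to the groups at hand, the array with conflicting labels placed in either genotype, array weights and each array left out; leaving out chips G and H was added after seeing the data. Figures were drawn with matplotlib 3.10.9. The shared promoter words were found in the windows themselves.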

Additional observations from a re-analysis of the deposited data

Results flagged for a closer look

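In P3 controls, Lce1c on array 6 (15.54) stood apart from the other 3 controls (15.35 to 15.36), with a gap of 0.923 of the group's range; chance flags about 1 in 20 groups.

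The genotype difference changed with age for 7 of the 10 members between P3 and P6, 9 between P3 and P13, 3 between P3 and P20, 2 between P6 and P13, 1 between P6 and P20 (Lce1c, smaller at P20) and 3 between P13 and P20 (Lce1a1, Lce1b and Lce1c, smaller at P20), each by its own contrast in the fit.

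On the P3 array with conflicting labels, which entered no comparison, Lce3c measured 11.8, near the 2 P3 mutants (11.86 and 11.91) and above all 4 P3 controls (10.80 to 11.51). Lce3f on that array was 6.05 and below detection, against 8.0 and 7.47 in P3 mutants and 5.77 to 6.75 in P3 controls.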

How the results depend on the processing

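The higher level of Lce3c and Lce3f in mutants at P6, P13 and P20 passed the test under every alternative run, single arrays left out included, except Lce3c at P20 with only the groups compared (5.62, adjusted p = 0.0738). Lce3b passed likewise, except at P6 within chips (adjusted p = 0.0509), and was not tested where detection in 12 arrays was required. Of the members' differences, those at P13 kept their direction and side of the threshold in 176 of 179 values over 18 alternatives and those at P6 in 165 of 179; at P20 27 of 189 and in adults 20 of 157 no longer passed. Differences near 0 changed sign: Lce1g at P3 was -0.25 with chip as a fixed block, -0.11 with chip as a random block, -0.25 within chips and -0.25 without control 7, and Lce1i at P3 was 0.04 without control 4 and 0.05 without control 6. With single arrays left out, Lce1g at P3 ran over -0.25 to 0.23 and Lce1i over -0.29 to 0.05. Without chips G and H, which leaves P20 mutant 1 and control 3, Lce1a1 at P20 was -0.62 and Lce1b -0.26. In the counts that follow, all of 14274 genes or members past the threshold, an age stands for mutants against controls, and a pair of ages for the change in that difference. Under the settings of the report, the genes called numbered 276 (P3), 3258 (P6), 2917 (P13), 1452 (P20) and 1694 (adults). 

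With chip as a fixed block, genes called were 420 (P3), 4502 (P13), 2433 (P20), 2656 (adults), 2294 (P13 against P3), 1075 (P20 against P3), 2431 (P13 against P6), 2230 (P20 against P13). The Lce1 count was 7 (P6 against P3), 2 (P20 against P3), 2 (P20 against P6), 6 (P20 against P13). The Lce3 count was 1 (P3), 1 (P20 against P13). With chip as a random block, genes called were 435 (P3), 4411 (P13), 2507 (P20), 2747 (adults), 2421 (P6 against P3), 2365 (P13 against P3), 1101 (P20 against P3), 2568 (P13 against P6), 2245 (P20 against P13), 3851 (controls across ages), 41 (controls, P13 against P6), 1748 (controls, P20 against P13). For Lce1 the count was 7 (P6 against P3), 1 (P20 against P3), 1 (P13 against P6), 2 (P20 against P6), 6 (P20 against P13), 0 (controls, P13 against P6). Lce3 calls came to 1 (P20 against P13). With the conflicting P3 array as a mutant, genes called were 70 (P3). Lce1 calls came to 1 (P20 against P3). For Lce3 the count was 1 (P13 against P6). With array weights, genes called were 456 (P3), 6545 (P6), 5567 (P13), 430 (P20), 2698 (adults), 4032 (P6 against P3), 3310 (P13 against P3), 320 (P20 against P3), 4598 (P13 against P6), 687 (P20 against P13), 11857 (controls across ages), 8252 (controls, P6 against P3), 4113 (controls, P13 against P6), 8353 (controls, P20 against P13). The Lce1 count was 7 (P6 against P3), 4 (P20 against P3), 5 (P13 against P6), 7 (controls, P13 against P6). The Lce3 count was 1 (P3), 2 (controls across ages), 2 (controls, P6 against P3), 1 (controls, P13 against P6). Without chips G and H, added after seeing the data, genes called were 508 (P3), 5589 (P6), 5221 (P13), 2881 (adults), 3678 (P6 against P3), 3200 (P13 against P3), 3819 (P13 against P6), 2418 (P20 against P13), 7417 (controls, P6 against P3), 1831 (controls, P13 against P6). For Lce1 the count was 1 (P20), 7 (P6 against P3), 1 (P20 against P3), 4 (P13 against P6), 6 (P20 against P6), 6 (P20 against P13), 7 (controls, P13 against P6). Lce3 calls came to 1 (P3), 1 (P20 against P6), 3 (P20 against P13), 2 (controls across ages), 2 (controls, P6 against P3), 1 (controls, P13 against P6), 2 (controls, P20 against P13). With only the groups compared, genes called were 5999 (P6), 4908 (P13), 68 (P20), 139 (adults), 3458 (P6 against P3), 2869 (P13 against P3), 245 (P20 against P3), 4307 (P13 against P6), 457 (P20 against P6), 248 (P20 against P13), 3686 (controls, P13 against P6), 1732 (controls, P20 against P13). Lce1 calls came to 0 (P20), 3 (adults), 7 (P6 against P3), 3 (P13 against P6), 0 (P20 against P6), 1 (P20 against P13), 7 (controls, P13 against P6), 2 (controls, P20 against P13). For Lce3 the count was 0 (adults), 2 (controls across ages), 2 (controls, P6 against P3), 1 (controls, P13 against P6). Within the chips that hold both genotypes, genes called were 4908 (P13), 517 (P20), 0 (adults), 2669 (P13 against P3), 3160 (P13 against P6), 578 (P20 against P6). The Lce1 count was 1 (P20), 0 (adults), 7 (P6 against P3), 1 (P20 against P3), 3 (P13 against P6), 0 (P20 against P6), 5 (P20 against P13). The Lce3 count was 0 (adults), 1 (P20 against P13). With no filter on dim probes, Lce1 genes called were 1 (P20), 2 (P6 against P3). Lce3 calls came to 1 (P13 against P6). With the authors' normalized values, genes called were 265 (adults), 505 (controls, P13 against P6). For Lce3 the count was 0 (adults), 1 (P20 against P6), 2 (P20 against P13). With the conflicting P3 array as a control, Lce1 genes called were 1 (P20 against P3). The Lce3 count was 2 (controls across ages), 2 (controls, P6 against P3). With detection required in at least 12 arrays, genes called were 900 (P13 against P6), 758 (P20 against P6), 145 (controls, P13 against P6). Lce3 calls came to 0 (P13 against P6). Genes called ran over 138 to 271 (P3), 1768 to 2100 (P6), 1369 to 2205 (P13), 943 to 3286 (P20), 759 to 1446 (P6 against P3), 429 to 999 (P13 against P3), 225 to 1734 (P20 against P3), 647 to 1385 (P13 against P6), 623 to 1985 (P20 against P6), 359 to 1999 (P20 against P13), 2334 to 4256 (controls, P6 against P3), 35 to 70 (controls, P13 against P6), 1739 to 5173 (controls, P20 against P13) when single arrays were left out. Lce1 genes called ran over 3 to 6 (P6), 0 to 7 (P20), 1 to 4 (P6 against P3), 0 to 6 (P20 against P3), 1 to 2 (P20 against P6), 1 to 4 (P20 against P13), 3 to 6 (controls, P6 against P3), 0 to 0 (controls, P13 against P6), 2 to 6 (controls, P20 against P13) when single arrays were left out. Lce3 genes called ran over 1 to 2 (P13 against P6), 0 to 1 (P20 against P6), 1 to 2 (controls across ages), 1 to 2 (controls, P6 against P3) when single arrays were left out. The cause of these changes was not tested; where fewer arrays or groups enter, the spread rests on fewer of them. No paired analysis was possible because mutants and controls of an age share no sample numbers. Not available were adult fits without the only control or the only mutant without p53f/+, chip blocks for controls between ages, and the authors' adult values for Lce3b and Lce3f. Signal over background limits Lce3b, Lce3f and Lce1g in controls.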
